A study of Mus musculus with 6 samples.

Results

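The genes described here are 10 mouse genes with C2 domains, grouped as calcium sensors of vesicle release, a property not measured here. They are otoferlin (Otof), the synaptotagmins Syt1, Syt3, Syt5, Syt7, Syt10 and Syt17, the double C2 proteins Doc2a and Doc2b, and the priming factor Cadps2. They were taken by symbol from a table of raw read counts for 55471 genes, and all 10 passed the filter on low counts that left 17981 genes to be tested. The genes were chosen by how they differed between the groups compared below, so their differences are a description and carry no test. Whole gene families around them were tested, and these lists were also drawn up with earlier results of the data known.

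The 6 libraries hold total RNA from the hippocampus of C57BL/6 mice (C57BL/6J in the study's methods) aged 3 to 6 months, sequenced as single-end reads of 50 bp. In 3 of them (CBP-ifKO), the floxed Crebbp gene, which encodes the lysine acetyltransferase CBP, was recombined by Cre recombinase. Per the study's methods, the recombined gene yields a truncated CBP without acetyltransferase activity. Tamoxifen switches the recombinase on, and the Camk2a promoter drives it (Camk2a-creERT2). That promoter is active in excitatory neurons of the forebrain, so interneurons and glia of the hippocampus were not targeted. The other 3 libraries (Control) came from littermates that also received 5 administrations of tamoxifen (20 mg/ml) but, per the treatment protocol, lacked the recombinase, although the description of these samples names Camk2a_creERT2. Floxed Crebbp is named only for CBP-ifKO, and loss of CBP and presence of the transgene cannot be told apart here. Each library pooled hippocampi of several female mice, according to the study's methods. The study asked which genes depend on CBP in adult neurons.

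Calcium that enters an active terminal or cell body binds C2 domains, folds of β-strands whose loops hold aspartate residues, and these domains then bind membranes and SNARE proteins so that a docked vesicle fuses. Synaptotagmins differ in the affinity and speed with which they respond: Syt1 drives the fast release that follows an action potential, Syt7 and the DOC2 proteins respond to lower calcium, and other family members serve dense core vesicles that carry neuropeptides and neurotrophins. Otoferlin belongs to the ferlins, large proteins with several C2 domains, and is best known as the release sensor of inner hair cells, where its loss causes deafness.

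The coding sequences were searched for a pattern of residues. A script read the longest complete coding transcript of each gene (GENCODE annotation and transcripts, build GRCm38) and looked for an aspartate, 5 further residues, a 2nd aspartate, a proline and then a tyrosine or phenylalanine, the pattern of the first calcium-binding loop of synaptotagmin C2 domains. Of the 10 genes, 8 held 2 matches each, Syt17 held 1, and Cadps2 held 0 in 1304 residues. The matches of Syt1 and of the 3 genes past the test's threshold below are shown, with the codons of both aspartates in capitals.
Otof, first match: GACagcagtgggctctctGATcccttt
Otof, second match: GACatcaatggcaaagctGACccctat
Syt1, first match: GACatgggaggcacatctGATccatac
Syt1, second match: GATgtgggtggcttatctGATccctat
Syt5, first match: GACctaggaggttcctcaGATccctat
Syt5, second match: GATgtaggaggactctcaGATccctat
Syt17, single match: GATgtgagccagggttcaGACccattt

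Both Otof matches lie within single coding exons on the minus strand, at chr5:30382842-30382868 (aspartates 975 and 981 of 1997 residues) and chr5:30375951-30375977 (aspartates 1508 and 1514). In Syt1, the first lies at chr10:108631895-108631921 on the minus strand (aspartates 172 and 178 of 421 residues) and the second spans an intron between chr10:108504523 and chr10:108583892 (aspartates 303 and 309). The first match of Syt5 is at chr7:4542822-4542848, also on the minus strand (aspartates 139 and 145 of 386 residues), and its second spans an intron (aspartates 270 and 276). The single match of Syt17 (aspartates 348 and 354 of 470 residues) spans an intron as well. A match is a description of the letters and does not show that a domain binds calcium, and the lack of one in Cadps2 says only that this pattern of residues is not in its sequence.

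Total counts per library ran from 10199008 to 14950257. Levels are given as CPM, counts brought to the same library size by TMM (trimmed mean of M values), and differences as log2 fold changes of CBP-ifKO over Control with their standard error (SE) from the quasi-likelihood fit of edgeR. Where a log2 ratio stands in brackets, ± gives its SE. Libraries are called by group and replicate number, such as Control 2, and values are listed in the order 1 to 3. Crebbp was at 191.2 ± 30.1 CPM in Control and at 98.4 ± 10.8 CPM in CBP-ifKO (SD, n = 3), a log2 fold change of -0.96 (edgeR adjusted p 3.63e-05), and Esr1, part of which is fused to the recombinase, at 6.07 ± 0.36 and 66.7 ± 2.91 CPM (edgeR adjusted p 7.9e-13). Esr1 ran from 5.65 to 6.29 CPM over the Control libraries and from 63.6 to 69.4 CPM over CBP-ifKO. Control libraries without the recombinase, as the treatment protocol has them, would read so. At an edgeR adjusted p under 0.05, 1149 of 17981 genes (6.39%) were past the threshold, 897 lower (4.99%) and 252 higher (1.4%). The share of lower genes among these calls was 78.1%, 56.5% with scaling by library totals alone and 66.2% after removal of trends with GC content and gene length. In 25.6% of all genes tested, the 3 values of one group lay wholly outside those of the other, and the median log2 fold change was -0.0033. The p-values measure the spread between these pooled libraries.

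Otof (ENSMUSG00000062372, GRCm38 chr5:30367062-30461932) was the gene that differed most among the 10. Its reads numbered 88, 94 and 80 in Control and 19, 21 and 29 in CBP-ifKO, which is 8.26, 8.07 and 7.93 CPM against 1.84, 1.38 and 2.39 CPM. Every CBP-ifKO library was far below every Control library, and the Control libraries were nearly alike. The CBP-ifKO mean (1.87 ± 0.50 CPM, SD, n = 3) was 23.1% of the Control mean (8.09 ± 0.16 CPM), with a log2 fold change of -2.13 (SE 0.20). Without any 1 library it ran from -2.34 to -1.91, and with GC and length trends removed it was -1.99. The CBP-ifKO values rest on at most 29 reads each. The Control values rest on 80 to 94 reads each, so their small spread is not a measure of precision.

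Syt1 (ENSMUSG00000035864, chr10:108497650-109010982), the sensor of fast synchronous release, was the most abundant of the 10. It stood at 1631, 1688 and 1693 CPM in Control against 1534, 1501 and 1500 CPM in CBP-ifKO. The groups did not overlap, but the CBP-ifKO mean was still 90.5% of the Control mean, with a log2 fold change of -0.14 (SE 0.05). Syt5 (ENSMUSG00000004961, chr7:4539765-4547541), a close relative of Syt1 that is also found on dense core vesicles, was at 66.0, 79.8 and 72.2 CPM in Control and at 54.4, 56.1 and 58.5 CPM in CBP-ifKO. Each CBP-ifKO library lay below each Control library, at 77.5% of the Control mean, a log2 fold change of -0.37 (SE 0.08).

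Syt7, Syt3, Doc2a and Doc2b, taken next, were not past the threshold. Only 6.39% of all genes tested were, so nothing is read from this about their class. Syt7 (ENSMUSG00000024743, chr19:10389090-10453180), which acts in asynchronous release and facilitation, had 223.0, 203.6 and 209.7 CPM in Control and 206.7, 182.4 and 200.5 CPM in CBP-ifKO. These ranges overlapped, and the log2 fold change was -0.11 (SE 0.06), or -0.05 without CBP-ifKO 2. Syt3 (ENSMUSG00000030731, chr7:44384102-44400187), a high-affinity synaptotagmin that also acts in the removal of AMPA receptors from the postsynaptic membrane, spread over 28.6, 45.1 and 34.0 CPM in Control and 32.3, 28.1 and 37.3 CPM in CBP-ifKO. Its groups were intermingled, the log2 fold change was -0.15 (SE 0.14), and without Control 2 it was 0.06.

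Doc2a and Doc2b encode soluble sensors of spontaneous and asynchronous release. Doc2a (ENSMUSG00000052301, chr7:126847416-126852705) had 20, 39 and 27 reads in Control and 22, 29 and 31 in CBP-ifKO, with a log2 fold change of -0.28 (SE 0.26) and overlapping groups at this depth. Without Control 1 it was -0.47, and without Control 2 it was -0.05. Of its exon bases, 39.4% also belong to Ino80e on the other strand, and whether reads were counted by strand is not given in the sources used here. Doc2b (ENSMUSG00000020848, chr11:75768966-75796049) was at 62.9, 54.7 and 55.3 CPM in Control and at 60.0, 47.7 and 58.0 CPM in CBP-ifKO. The groups overlapped, with a log2 fold change of -0.07 (SE 0.09) that was 0.04 without CBP-ifKO 2. For Doc2b and Syt7, 5.53% and 5.13% of exon bases overlap a gene of opposite strand.

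Among the less studied synaptotagmins, Syt17 (ENSMUSG00000058420, chr7:118380717-118448222), which lacks the membrane-spanning segment of its relatives, was at 71.5, 75.4 and 85.0 CPM in Control and at 55.8, 52.3 and 62.3 CPM in CBP-ifKO. All CBP-ifKO libraries were below all Control libraries, at 73.5% of the Control mean and a log2 fold change of -0.45 (SE 0.08). Syt10 (ENSMUSG00000063260, chr15:89782393-89841860), known for the release of insulin-like growth factor 1 in the olfactory bulb, had 13.9, 12.5 and 14.4 CPM in Control and 10.3, 10.7 and 12.3 CPM in CBP-ifKO. The highest CBP-ifKO library came within a small margin of the lowest Control library without crossing it, and the log2 fold change was -0.29 (SE 0.12).

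Cadps2 (ENSMUSG00000017978, chr6:23262773-23839421), which encodes CAPS2, a priming factor for dense core vesicles, was the only one of the 10 with a positive value. It was at 112.4, 160.8 and 147.5 CPM in Control and at 174.7, 113.0 and 170.6 CPM in CBP-ifKO. Each group held 1 low library, Control 1 and CBP-ifKO 2, and the ranges overlapped. The log2 fold change was 0.12 (SE 0.14), and -0.02 without Control 1.

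**Figure D1:**
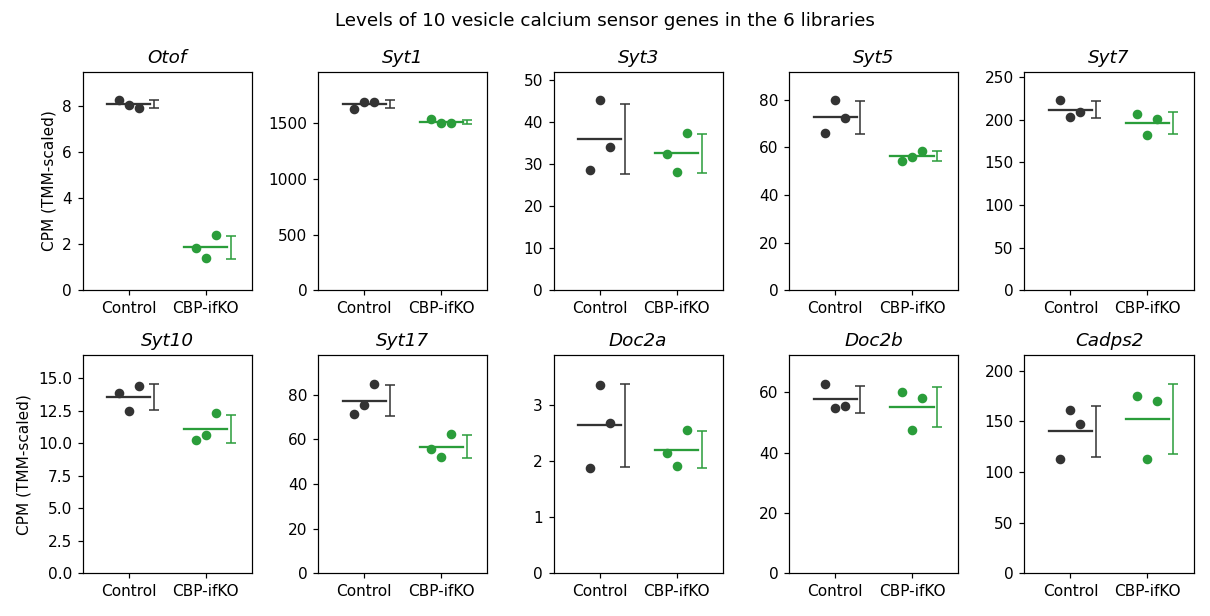
TMM-scaled CPM of the 10 genes (vertical axes, each from 0) in the 3 Control libraries (black) and the 3 CBP-ifKO libraries (green), with 1 point per library, the horizontal line at the mean and the bar giving SD. The groups lie farthest apart for Otof, with 7.93 to 8.26 CPM in Control against 1.38 to 2.39 CPM in CBP-ifKO, while Syt3, Syt7, Doc2a, Doc2b and Cadps2 overlapped between the groups.

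Of the 10 genes, Otof, Syt5 and Syt17 were past the edgeR threshold, all lower, and 5 (these 3 with Syt1 and Syt10) did not overlap between the groups. The background shares are 4.99% lower and 25.6% not overlapping over all genes tested, but the genes were selected on this contrast and nothing is read from that comparison. The median log2 fold change of the 10 was -0.215, and 9 were negative. The calls of Otof, Syt5 and Syt17 were made again in each of 9 other settings of the fit and in each of 6 fits that left out 1 library. These refits use the libraries on which the genes were chosen, so the repeats add no independent support. Syt1 was past the threshold as well with limma-voom and with the replicate block together with the removal of GC and length trends.

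**Figure D2:**
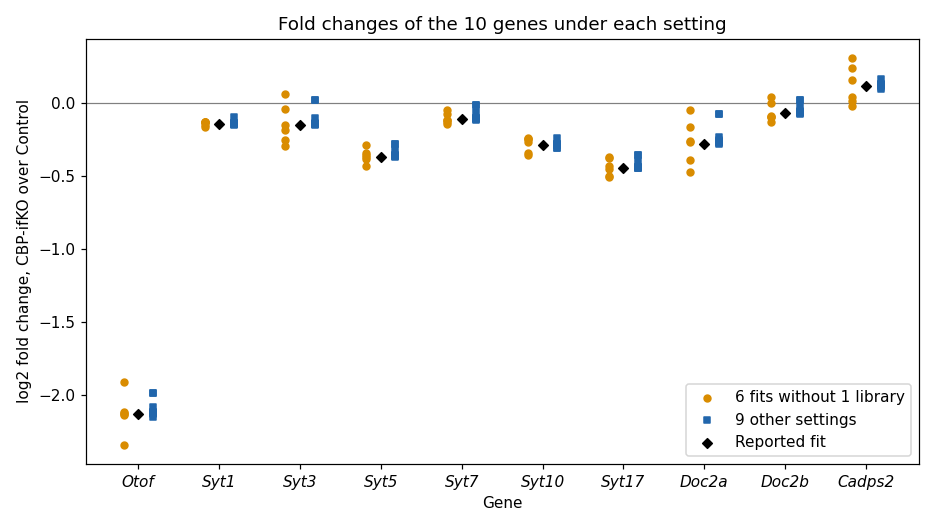
Log2 fold change of CBP-ifKO over Control (vertical axis) for each of the 10 genes (horizontal axis) in the reported fit (black), in 9 other settings (blue) and in 6 fits without 1 library each (orange). Otof stayed between -2.34 and -1.91, and the points of Syt3, Doc2b and Cadps2 lie on both sides of 0.

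Levels of different genes can be compared only per length, as RPKM (CPM divided by the exon length in kilobases). On that scale, Control means ran from 200.4 ± 4.15 RPKM for Syt1 to 0.940 ± 0.263 RPKM for Doc2a (SD, n = 3). Syt5 (30.5 ± 2.90) and Syt7 (28.3 ± 1.32) followed Syt1 and overlapped each other. Next came Syt17 (14.9 ± 1.33), Cadps2 (14.7 ± 2.61), Doc2b (13.2 ± 1.05) and Syt3 (11.5 ± 2.69), of which each overlapped its neighbour in this order. Syt10 (7.36 ± 0.54) lay below Syt3, and Otof (1.02 ± 0.02) below Syt10, in every Control library. Otof and Doc2a overlapped in Control. In CBP-ifKO, Otof was at 0.237 ± 0.064 RPKM and Doc2a at 0.784 ± 0.117 RPKM. Otof was thus a rare transcript in this tissue, and its share of the summed level of the 10 genes was 0.317% in Control and 0.0817% in CBP-ifKO.

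Syt1 made up most of the summed level of these genes. Its share of the summed RPKM of the 10 genes was 62.1% ± 0.77 in Control and 63.0% ± 2.03 in CBP-ifKO (SD, n = 3), which differed by less than the spread. That sum ran from 311.5 to 330.4 RPKM in Control and from 276.4 to 294.2 RPKM in CBP-ifKO. Among all 17 synaptotagmins, Syt1 took 38.4% and 38.6%, followed by Syt11, a family member that does not bind calcium, with 22.4% and 23.0%. Syt8 had no reads in any library.

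**Figure D3:**
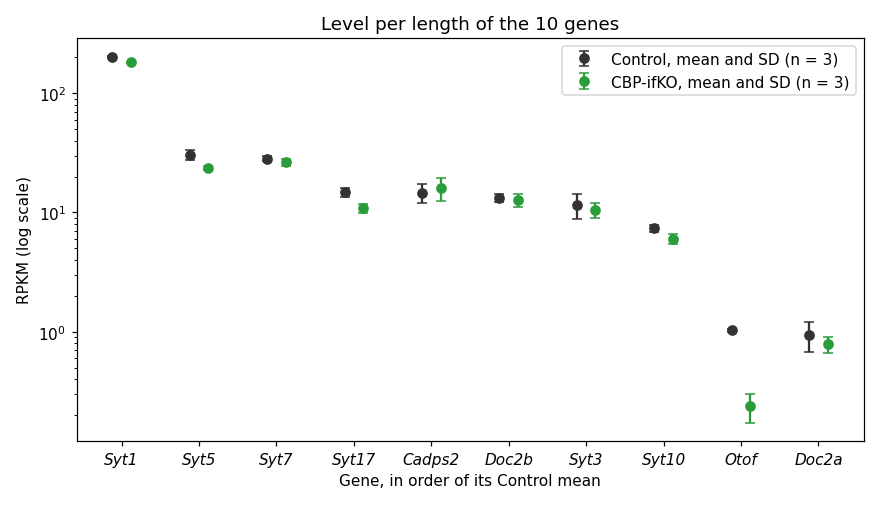
Level per length of the 10 genes in RPKM (vertical axis, log scale), in order of the Control mean (black) with the CBP-ifKO mean beside it (green). Points are means over 3 libraries and bars are SD. Syt1 stands alone at the top with 200.4 RPKM in Control, and Otof and Doc2a lie at about 1 RPKM.

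The C2 domain is shared by many other proteins of the vesicle cycle, and 48 further genes of these families were examined as whole families. Of them, 42 were tested and 11 (26.2%) were past the edgeR threshold, 10 lower and 1 higher, against 6.39% of all genes tested. Their median log2 fold change was -0.143, and 31 of 42 values were negative. The copines, soluble proteins with a pair of C2 domains that move to membranes when calcium rises, held most of these calls: 6 of 8 tested, 5 lower and 1 higher. The other ferlins held none of 3 tested at the threshold and 1 at an unadjusted p under 0.05 (Dysf, Myof and Fer1l5, with log2 fold changes of 0.14, -0.51 and 0.22 and edgeR adjusted p of 0.831, 0.101 and 0.318). Of the release genes described below, 20.6% were past the threshold. The gene sets were not matched to all genes tested for expression level, on which calls also depend.

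Cpne5 had the largest difference of these families. It was at 17.7, 16.3 and 15.6 CPM in Control and at 8.53, 9.46 and 7.08 CPM in CBP-ifKO, so that every CBP-ifKO library was far below the lowest Control library, with 50.6% of the mean left (log2 ratio -0.97 ± 0.13, edgeR adjusted p 0.000306). Cpne9 went the other way, from 10.1, 10.6 and 10.1 CPM in Control to 16.4, 17.8 and 15.5 CPM in CBP-ifKO, without overlap (log2 ratio 0.69 ± 0.12, edgeR adjusted p 0.00154). Cpne4 fell from 123.5 ± 5.31 to 92.4 ± 3.17 CPM (SD, n = 3, edgeR adjusted p 0.000715). Cpne2 was lower as well (log2 ratio -0.49 ± 0.10, edgeR adjusted p 0.00705), a call that was lost without CBP-ifKO 2 (edgeR adjusted p 0.0589). Cpne6, the most abundant copine per length (84.6 RPKM in Control) and known in excitatory neurons, was at 360.3 ± 25.1 and 389.8 ± 19.4 CPM (edgeR adjusted p 0.325). Cpne7 and Cpne8, with log2 fold changes of -0.24 and -0.39, had edgeR adjusted p of 0.0313 and 0.0393. The call of Cpne8 was lost without Control 1, Control 3, CBP-ifKO 2 or CBP-ifKO 3, and that of Cpne7 whenever a library other than Control 2 was left out, with edgeR adjusted p up to 0.21 and 0.159. With GC and length trends removed, Cpne7 had a log2 fold change of -0.08 (edgeR adjusted p 0.494).

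Of the other synaptotagmins, 1 of 10 tested was past the threshold, against 6.39% of all genes tested. Syt13, which is thought not to bind calcium, was at 136.0, 138.9 and 138.0 CPM in Control and at 109.6, 105.7 and 116.0 CPM in CBP-ifKO, with no overlap (log2 ratio -0.32 ± 0.06, edgeR adjusted p 0.00438). Syt11, the most abundant of them per length (117.0 RPKM in Control), had a log2 fold change of -0.11 (edgeR adjusted p 0.243). Synaptotagmin-like and extended synaptotagmin genes gave no call at the edgeR threshold among 3 tested in each list, and 0 and 1 at an unadjusted p under 0.05. Their most abundant members per length in Control, Sytl5 (3.71 RPKM) and Esyt2 (19.0 RPKM), a tether between endoplasmic reticulum and plasma membrane, had edgeR adjusted p of 0.359 and 0.0556.

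Of the other Munc13 and CAPS genes, 1 of 6 tested was past the threshold, and of the RIM and piccolo genes, 2 of 5, all lower. Over all genes tested, 4.99% were past it and lower. Unc13a, which encodes Munc13-1, the factor that makes vesicles ready for fusion, fell from 392.7 ± 10.4 to 314.0 ± 23.2 CPM (SD, n = 3, log2 ratio -0.32 ± 0.06, edgeR adjusted p 0.00438). Cadps, the paralogue of Cadps2, was at 505.4 ± 2.13 and 488.6 ± 20.2 CPM (edgeR adjusted p 0.672), and the rabphilin gene Rph3a, related to the DOC2 genes, at 119.0 ± 14.3 and 104.2 ± 9.34 CPM (edgeR adjusted p 0.201). Rims1, a scaffold of the active zone, and Rims4 were lower by log2 fold changes of -0.21 and -0.30 (edgeR adjusted p 0.0393 and 0.0345). Both calls were lost when Control 1, Control 3, CBP-ifKO 2 or CBP-ifKO 3 was left out, with edgeR adjusted p up to 0.214 and 0.172. Mctp1, which encodes a membrane protein with several C2 domains, fell from 111.2 ± 5.40 to 81.9 ± 4.21 CPM (SD, n = 3, log2 ratio -0.44 ± 0.07, edgeR adjusted p 0.000754). With GC and length trends removed, Unc13a had a log2 fold change of -0.21 and Rims4 of -0.18 (edgeR adjusted p 0.0206 and 0.163). For Unc13a, 3.92% of exon bases overlap a gene of opposite strand. Of the 11 calls, those of Syt13, Unc13a, Mctp1, Cpne4, Cpne5 and Cpne9 were made in all 6 fits without 1 library and in all 9 other settings.

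**Figure D4:**
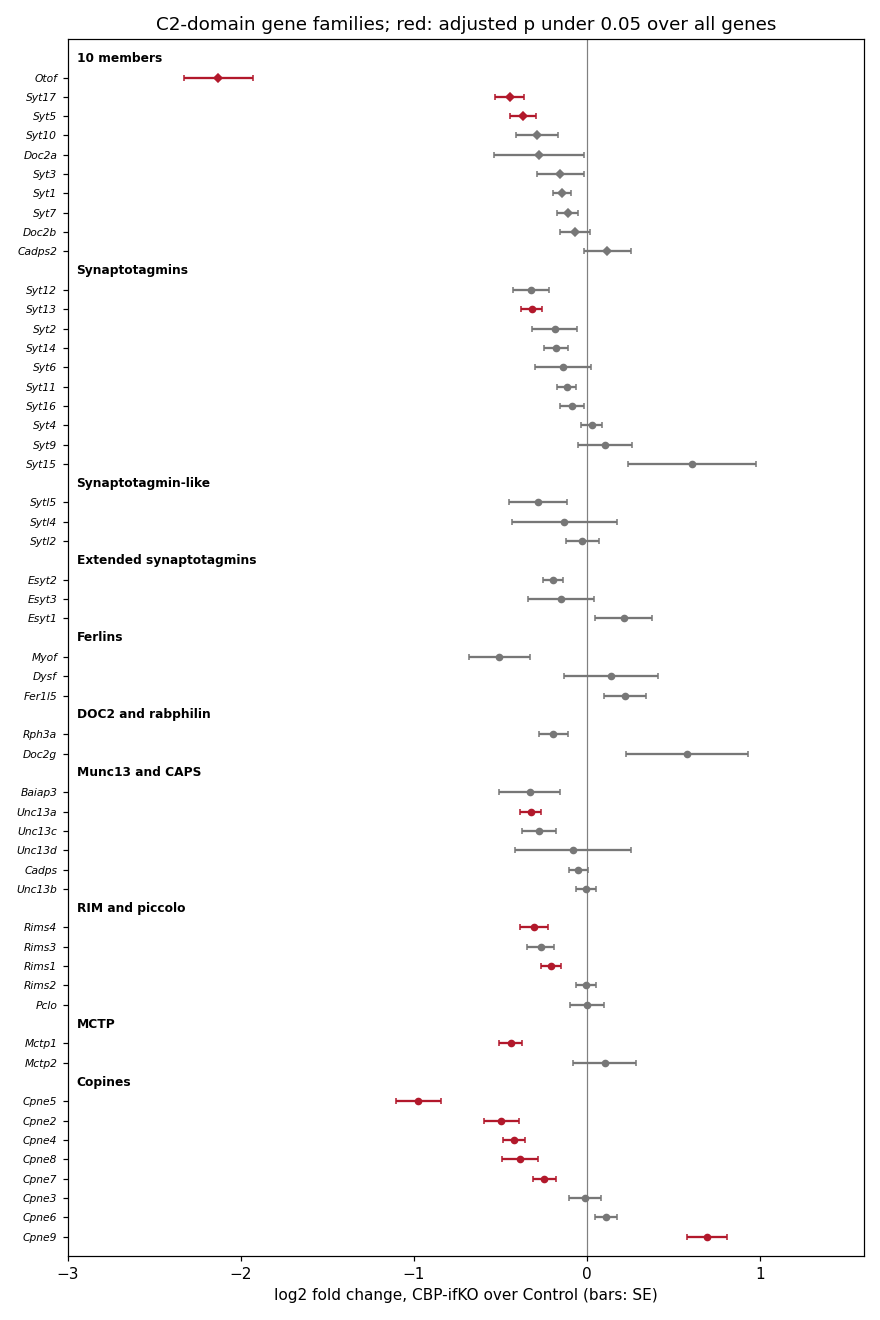
Log2 fold change of CBP-ifKO over Control (horizontal axis, bars SE) for the 10 genes (diamonds) and for 42 tested genes of the other C2-domain families (circles), by family. Red marks an edgeR adjusted p under 0.05 over all genes tested, which for the 10 genes is a description. Otof lies farthest left at -2.13, Cpne5 follows at -0.97, and Cpne9 is the red point on the right at 0.69.

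The proteins that these sensors act on were examined as a further 65 genes for SNAREs, their regulators, vesicle membrane proteins and dense core vesicle cargo. Of 63 tested, 13 (20.6%) were past the edgeR threshold, 12 lower and 1 higher, with a median of -0.103 on the log2 scale. Over all genes tested, 6.39% were past it, 4.99% lower and 1.4% higher. By list, the calls were 2 of 15 SNAREs, 3 of 20 SNARE regulators, 4 of 15 vesicle membrane proteins and 4 of 13 dense core vesicle genes. The vesicle protein Sv2c had the largest difference, at 35.9, 30.4 and 33.1 CPM in Control and 19.0, 18.2 and 19.3 CPM in CBP-ifKO, a difference of -0.81 ± 0.09 (log2, SE, edgeR adjusted p 9.38e-05). All 3 CBP-ifKO libraries were clearly below Control.

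In the dense core vesicle list, Bdnf, a neurotrophin, and Pcsk1, a protease that processes propeptides, were lower, while Chgb, which encodes the granin chromogranin B, was higher. Bdnf was at 52.2, 58.4 and 48.2 CPM in Control and at 36.0, 32.8 and 32.0 CPM in CBP-ifKO (log2 ratio -0.66 ± 0.09, edgeR adjusted p 0.000251), and 14.4% of its exon bases overlap a gene of opposite strand. The lower level of Bdnf was known when the list was made, so its call is not independent. Pcsk1 fell from 44.1 ± 3.26 to 29.0 ± 1.73 CPM (SD, n = 3, log2 ratio -0.60 ± 0.08, edgeR adjusted p 0.00042). The granin-like Vgf was at 29.6, 50.1 and 32.3 CPM in Control and at 26.6, 18.01 and 21.5 CPM in CBP-ifKO (log2 ratio -0.78 ± 0.17, edgeR adjusted p 0.00904). Control 2 was high for Vgf: without it the log2 fold change was -0.50, and without CBP-ifKO 2 or CBP-ifKO 3 the call was lost (edgeR adjusted p 0.0889 and 0.0538). Chgb, the 1 higher call of these lists, was at 499.2, 551.2 and 486.7 CPM in Control and at 632.9, 585.3 and 615.3 CPM in CBP-ifKO, without overlap (log2 ratio 0.25 ± 0.06, edgeR adjusted p 0.018). It is named after its values were seen, and its call was lost without Control 1, Control 3, CBP-ifKO 1 or CBP-ifKO 3 (edgeR adjusted p up to 0.126). Cplx2, a complexin that clamps SNARE complexes until calcium arrives, fell from 945.6 ± 57.1 to 762.1 ± 27.1 CPM (SD, n = 3, log2 ratio -0.31 ± 0.06, edgeR adjusted p 0.00396). Slc32a1, the vesicular transporter for GABA, had a log2 fold change of -0.38 (edgeR adjusted p 0.045), which became -0.15 (edgeR adjusted p 0.477) with GC and length trends removed, and 24.9% of its exon bases overlap a gene of opposite strand. Its call was lost whenever a library other than CBP-ifKO 1 was left out, with edgeR adjusted p up to 0.214. Of the 13 calls, those of Sv2c, Bdnf, Pcsk1 and Cplx2 were made in all 6 fits without 1 library and in all 9 other settings.

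Of 6 genes listed as reported partners of otoferlin, 2 were past the threshold, against 6.39% of all genes tested. Whether their proteins act with otoferlin in the hippocampus was not measured. Stx1a and Nsf, for a plasma membrane SNARE and the ATPase that takes SNARE complexes apart, were lower by log2 fold changes of -0.30 and -0.26 (edgeR adjusted p 0.025 and 0.00619). The Nsf call was lost without CBP-ifKO 3 (edgeR adjusted p 0.0604), and that of Stx1a whenever a library other than Control 1 was left out (edgeR adjusted p up to 0.133). With GC and length trends removed, Stx1a had a log2 fold change of -0.17 and lost its call (edgeR adjusted p 0.147), as it did with library totals only (edgeR adjusted p 0.0526). Snap25, the abundant SNARE partner of syntaxin, had -0.18 (edgeR adjusted p 0.069). Myo6, for a motor protein, Cacna1d, for a calcium channel of hair cells, and Ap2m1, for an adaptor of endocytosis, had log2 fold changes of -0.05, 0.10 and 0.11 (edgeR adjusted p 0.676, 0.493 and 0.421). Stx1a and Nsf also belong to the lists above.

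For each of the 10 genes, the tested protein-coding genes with the nearest start coordinate on each side were taken, 20 in all. Some are not clear of their gene: Gm5136, 1700008O03Rik, Ino80e and Rnf133 overlap Syt1, Syt3, Doc2a and Cadps2 in turn. The 20 differed by 0.012 in the median on the log2 scale, and 9 values were negative. Of the 20, 3 were past the threshold, against 6.39% of all genes tested. Beside Otof, Drc1, 367 bases away, was at 10.9 ± 0.75 CPM in Control against 9.91 ± 1.21 CPM in CBP-ifKO (log2 ratio -0.14, edgeR adjusted p 0.597). Kcnk3, 126238 bases away on the other side, was at 5.63 ± 0.49 and 3.78 ± 0.54 CPM (log2 ratio -0.59 ± 0.18, edgeR adjusted p 0.0644). The 3 neighbours past the threshold, named after their values were seen, were all lower: Lrrc4b beside Syt3 (-0.57, edgeR adjusted p 0.00205), Dagla and Lrrc10b on either side of Syt7 (-0.40 and -0.49, edgeR adjusted p 0.0038 and 0.00468). With GC and length trends removed, Dagla and Lrrc10b were no longer past it (edgeR adjusted p 0.0835 and 0.135) and Lrrc4b had -0.30.

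In a RefSeq table of promoter windows (GRCm38.p6, from 250 bases before to 50 after each start), 5 windows belonged to 4 of the 10 genes, Syt1, Syt3, Syt10 and Cadps2. The core letters of the element that CREB, the partner of CBP, binds, TGACG on either strand, were in 1 of these windows (Syt10) and in 20.8% of all 32851 windows. The full palindrome TGACGTCA, which contains those letters, was in none of the 5 and in 1.79% of all windows. Otof, Syt5 and Syt17 had no window, so these counts do not cover them.

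Across the 6 libraries, the genes with at least 1 CPM on average whose log2 CPM followed Otof most closely, of 17432 compared, were Car12 (Pearson's r 0.998), Syt13 (0.997), Amph (0.997), Cacna1i (0.996) and Gm11400 (0.996). The 6 points form 2 groups by genotype, so these values describe a shared split, and no test was made. Car12, a carbonic anhydrase, was at 36.7, 35.4 and 37.7 CPM in Control and at 18.6, 16.7 and 20.6 CPM in CBP-ifKO, while Amph, an endocytic protein, had a log2 fold change of -0.14 (edgeR adjusted p 0.151). Syt13 is described above, Cacna1i encodes a T-type calcium channel (log2 fold change -0.43), and Gm11400 is a predicted gene at 0.789 to 1.502 CPM.

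Markers of hippocampal fields differed between the same libraries. Over all genes tested, 6.39% were past the edgeR threshold, 4.99% lower and 1.4% higher. Of 9 markers of CA1 pyramidal neurons, 7 were past the edgeR threshold, all lower, and their summed level was 694.5 to 724.7 CPM in Control and 506.2 to 528.3 CPM in CBP-ifKO. For CA2, 2 of 6 were lower (sums of 193.2 to 213.3 and 131.0 to 135.7 CPM). For CA3, 0 of 8 were past the edgeR threshold and 3 were at an unadjusted p under 0.05, with sums of 346.6 to 349.2 and 319.3 to 327.4 CPM. In the dentate gyrus, 4 of 11 were lower and 1 higher (726.5 to 763.0 and 701.0 to 752.0 CPM). Of 12 interneuron markers, 3 were lower, with sums of 1050 to 1112 CPM in Control and 946 to 1025 CPM in CBP-ifKO. Markers of astrocytes, microglia, oligodendrocytes and endothelium gave no call at the edgeR threshold among 10 in each list, with 1, 2, 4 and 2 at an unadjusted p under 0.05, and the sums of the last 3 lists overlapped between the groups. The astrocyte sum was 1441 to 1490 CPM in Control against 1336 to 1438 CPM in CBP-ifKO. Genes of neocortex gave 2 lower calls of 8 tested (225.8 to 245.9 and 187.0 to 202.7 CPM), those of striatum 1 higher of 7 (43.3 to 47.8 and 41.5 to 45.4 CPM), and those of thalamus and choroid plexus 0 of 7 and 0 of 5, each with 1 at an unadjusted p under 0.05. No marker of any list was at 0 in all libraries. In bulk RNA, fewer cells of a type and less RNA per cell cannot be told apart, and the part of these field markers in the values of Otof, Syt5, Syt17 and the copines was not tested.

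GC content moved with the fold changes over all genes. The median log2 fold change was 0.07 in the lowest of 10 equal bins by GC content of the longest transcript and -0.18 in the highest bin. Of the 10 genes, Syt5, Syt17, Otof and Doc2a have 55.4%, 54.6%, 56.7% and 60.4% GC, and Syt1 and Syt10 have 45.8% and 47.6%. With GC and length trends removed, the log2 fold changes were -0.36 for Syt17, -0.28 for Syt5, -0.07 for Doc2a and -0.02 for Syt7, Syt3 and Doc2b were at 0.02 each, and the median of the 10 was -0.111. Otof was at -1.99. The part of GC content and gene length in these differences was not tested.

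**Figure D5:**
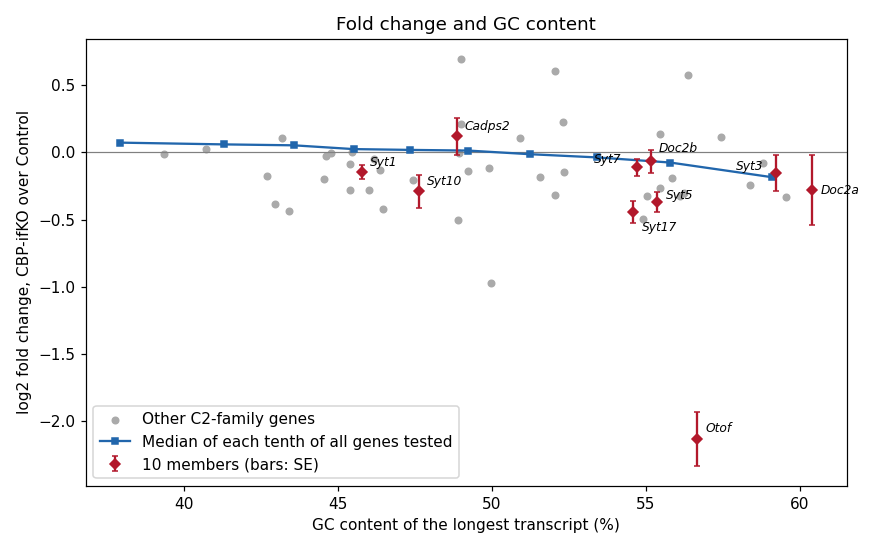
Log2 fold change of CBP-ifKO over Control (vertical axis) against GC content of the longest transcript in percent (horizontal axis) for the 10 genes (red, bars SE) and the other tested C2-family genes (grey). The blue line joins the medians of 10 equal bins of all genes tested, from 0.07 at low to -0.18 at high GC content. Otof is plotted at -2.13.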

How the data were processed

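Sample titles gave the groups and the replicate numbers. Per the labels and the study's methods, the authors trimmed reads (Trim Galore 0.6.4), aligned them with STAR 2.6.1 to GRCm38, kept reads of adequate mapping quality and counted them over exons of Ensembl genes with Rsubread. The deposited values are raw counts per gene, beside an exonic length used here for RPKM. For CBP-ifKO, the order of the totals by replicate number is not that of the read numbers the study lists, so a number may name another library of that group.

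The 10 genes and all gene and marker lists were chosen with earlier results of these data known. Symbols, coordinates, GC content and overlaps came from GENCODE on GRCm38, which matched 55230 of 55471 identifiers (99.57%). Counts were fitted with edgeR 4.0.16 (R 4.3.3; quasi-likelihood F-test, TMM, filterByExpr at its minimum count of 10 and total of 15) and Benjamini-Hochberg adjustment over 17981 genes, with 0.05 as threshold. The SE is the size of the log2 fold change over the root of its F value. The fit was tested on simulated counts. The simulation held no trend with GC content, and its planted changes were larger than most described here. It therefore does not speak to the smaller differences or to that trend. The common coefficient of variation between replicates was 6.81%.

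Alternatives were DESeq2 1.42.0 (the tool of the study, there 1.30.1), limma-voom (limma 3.58.1), RLE scaling, library totals only, 2 other filters, spline trends on GC content and length as offsets (5 degrees of freedom), a replicate block with and without these, and each library left out. The genes named were all 10, Crebbp and Esr1, each C2-family gene past the threshold and the most abundant of each family per length, the 6 largest calls among the release genes, the partners of otoferlin, the neighbours of Otof and the 5 genes most like Otof.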

Additional observations from a re-analysis of the deposited data

How the results depend on the processing

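Over all genes, 1149 calls became 1839 once the replicate block and the GC and length offsets were combined, 896 with DESeq2 and 1511 with no filter on low counts, and 498 to 1326 when 1 library was left out, with 546 without Control 3, 498 without CBP-ifKO 2 and 526 without CBP-ifKO 3. Of the other C2-family genes, 11 calls became 7 with library totals only and 6 to 15 without 1 library (7 without Control 3, 6 without CBP-ifKO 2 and 7 without CBP-ifKO 3). Of the release genes, 13 became 8 with library totals only and 4 to 10 without 1 library (8 without Control 1, 6 without Control 3, 6 without CBP-ifKO 2 and 4 without CBP-ifKO 3). Fits without 1 library test 2 samples against 3. The median of the 10 genes ran from -0.305 to -0.129 in them and from -0.216 to -0.111 in the other settings. Libraries of different genotype share only a number: residuals of same-numbered libraries correlated at 0.0769, 0.0369 and 0.00216, and the replicate block gave 1210 calls over all genes, 12 among the other C2-family genes and 12 among the release genes. With DESeq2, the calls of Rims4, Cpne8, Slc32a1, Vgf and Vamp1 were lost. Among the called genes of the 10 and of the C2-family, release and neighbour lists, with Crebbp and Esr1, none changed sign in any setting tried. The signs of the other calls were not checked. For genes of few reads, such as Doc2a and Otof in either group, counting error sets the limit of what can be seen.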
